A study of Rattus norvegicus with 2 samples.

Results

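In the wall of the rat carotid artery, 131 of 7191 cells that passed quality control carried transcripts of smooth muscle cells and of fibroblasts side by side. These cells, called V+F+ cells here, were chosen by 2 shares of each cell's transcript counts. V is the percentage of a cell's UMIs (unique molecular identifiers, 1 per captured transcript) in 6 smooth muscle genes, Acta2, Tagln, Myl9, Myh11, Cnn1 and Cald1. F is the percentage in 4 fibroblast genes, Col1a1, Col3a1, Dcn and Lum. A V+F+ cell had a V of at least 0.7 and an F of at least 1.5. A cell passed quality control with at least 1000 UMIs and at most 20% of them in mitochondrial genes. For comparison, 3430 cells with a V of at least 1 and an F below 1 made up the smooth muscle comparator, and 1911 cells with an F of at least 1.5 and a V below 0.5 the fibroblast comparator.

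The data were 10x Genomics single-cell RNA libraries of carotid arteries of SD (Sprague-Dawley) rats, aged 12 weeks by the labels. The control library held the untreated left arteries and the case library the right arteries after balloon injury, a model of restenosis in which a balloon strips the endothelium and a neointima forms, taken 28 days after injury. Each library pooled the arteries of 2 rats, and both sides came from the same animals. With 1 library per group, no difference between groups has a replicate check, the treatment cannot be told apart from the side and the library, and the intervals given cover counting error only. The control library had 3321 barcodes with 24968329 UMIs in total and a median of 5981 UMIs per barcode, and the case library 5656 barcodes with 28232614 UMIs and a median of 4778.

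Vascular smooth muscle cells of the media contract through actin, myosin and their regulators, and are known to lose these proteins and to make matrix after injury, a change named phenotype switching. Adventitial fibroblasts make the fibrillar collagens and small proteoglycans of the outer wall and can become myofibroblasts. In droplet libraries the transcripts of both can also come together when cells share a droplet or when free RNA enters it, so depth, doublet scores and the markers of other cell types are given beside the levels.

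The control library had 69 V+F+ cells among 2244 cells, a share of 3.07% (exact 95% interval 2.40% to 3.88%). In the case library 62 of 4947 cells were V+F+, 1.25% (0.962% to 1.60%). Over all cells the share was thus higher in the control library, but this rested on cells under 4000 UMIs, where it was 10.8% (8.05% to 14.2%) in the control and 0.827% (0.428% to 1.44%) in the case library. Among cells of at least 4000 UMIs it was 1.26% (0.803% to 1.89%) in the control and 1.43% (1.06% to 1.88%) in the case library, with the direction turned and overlapping intervals. This range pooled unlike depths: 356 of its 1820 control cells but 2777 of its 3496 case cells had under 8000 UMIs. At 4000 to 8000 UMIs the shares were 0.562% and 0.504%. At 8000 to 16000 UMIs they were 0.574% (0.211% to 1.24%) in the control and 4.71% (3.24% to 6.58%) in the case library. From 16000 UMIs up they were 3.59% (2.02% to 5.85%) and 10.3% (2.87% to 24.2%). V+F+ cells had a median V of 1.36 in the control and 1.17 in the case library, against 2.53 and 2.01 in the smooth muscle comparator. Their median F was 2.49 in the control and 2.31 in the case library, against 4.19 and 3.41 in the fibroblast comparator. These values chose the cells and are given as a description.

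V+F+ is a range cut from per-cell shares, not a clustered cell type. Within 0.1 of the V threshold, with F passed, lay 4 cells inside and 7 outside in the control library, and 11 inside and 8 outside in the case library. Within 0.2 of the F threshold, with V passed, lay 13 inside and 17 outside in the control, and 8 inside and 12 outside in the case library. The nearest control cells had a V of 0.7003 inside and 0.674 outside, and the nearest case cells 0.715 and 0.679. For F the nearest control cells stood at 1.51 and 1.498, and the nearest case cells at 1.53 and 1.48.

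**Figure D1:**
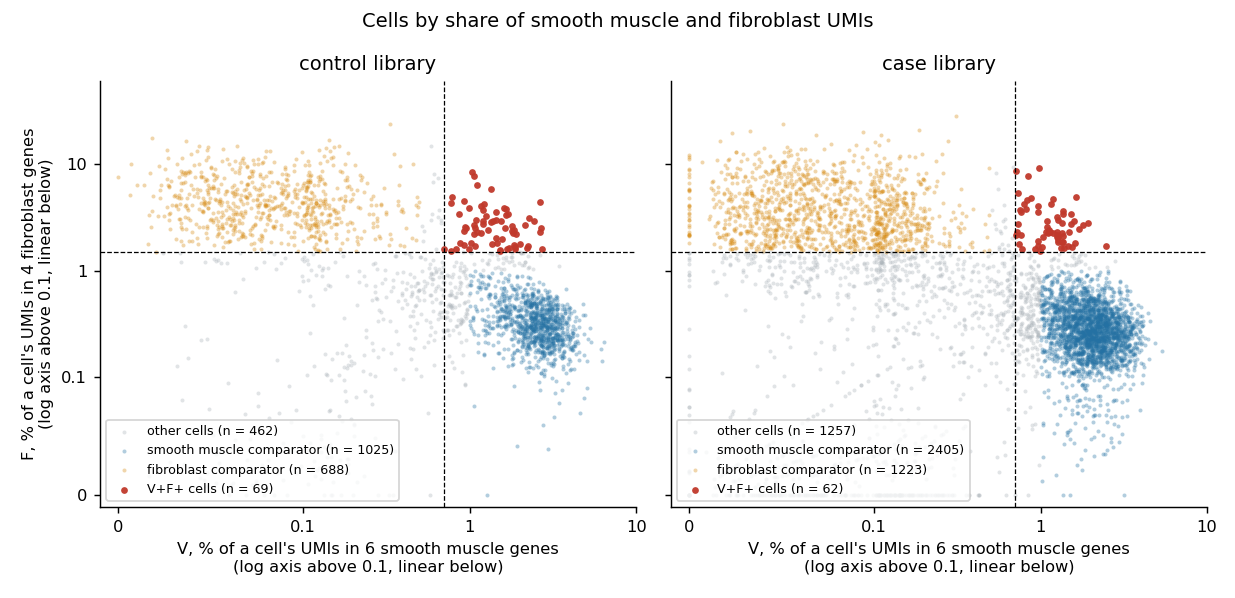
Share of each cell's UMIs in 6 smooth muscle genes (V, x axis, percent) and in 4 fibroblast genes (F, y axis, percent), with 1 point per cell and a panel per library; both axes are logarithmic above 0.1 and linear below, and the dashed lines are the thresholds of 0.7 and 1.5. The 69 control and 62 case V+F+ cells (red) lie in a sparse field between the dense groups of the comparators.

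Tagln, Myh11, Col1a1 and Dcn are genes of the rule, so that their presence and their place between the comparators were fixed by the choice of cells and are given as a description. Tagln, which encodes the actin-binding transgelin, was found in 69 of 69 control and 62 of 62 case V+F+ cells, and Col1a1, a chain of type I collagen, in the same 69 and 62. Myh11, the smooth muscle myosin heavy chain, had UMIs in 68 control and 61 case cells. Dcn, the proteoglycan decorin, had UMIs in 68 and 58. As a level (CPM, counts per 1000000 UMIs, from the UMIs summed over the cells of a class), Myh11 was 2488 in control V+F+ cells, between 129 in the fibroblast and 4763 in the smooth muscle comparator. Dcn was 8218 CPM, between 204 in the smooth muscle and 15226 in the fibroblast comparator. The case V+F+ cells had 2582 CPM of Myh11 and 6522 CPM of Dcn.

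Depth separated the V+F+ cells of the libraries. In the control library their median was 2744 UMIs per cell, below the 12670 of the smooth muscle and the 11338.5 of the fibroblast comparator. In the case library it was 9479, above the 5581 and 5507 of the comparators. Control V+F+ cells thus had far fewer UMIs than either comparator, and case V+F+ cells more than either.

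The control cells fell into a shallow and a deep set. Of the 69 cells, 46 had fewer than 4000 UMIs (median 2200.5) and 23 had more (median 20044). Only 2 lay between 4000 and 8000 UMIs. The split at 4000 UMIs was set after these depths had been seen. The 46 shallow cells held 98671 of the 547105 UMIs of all control V+F+ cells, 18.0%, so that a CPM of the summed UMIs reports mainly the 23 deep cells. In the case library 12 cells were shallow (median 2794.5) and 50 deep (median 10427). Among all control cells, the V+F+ share was 8.98% at 1000 to 2000 UMIs and 13.4% at 2000 to 4000, but 0.562% at 4000 to 8000 and 0.574% at 8000 to 16000, and 3.59% from 16000 up. Among case cells it was 0.347%, 0.946% and 0.504% in the lowest 3 of these ranges, 4.71% at 8000 to 16000 and 10.3% from 16000 up. The share was therefore highest among deep cells in the case library, and at both ends of the depth range in the control library.

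**Figure D2:**
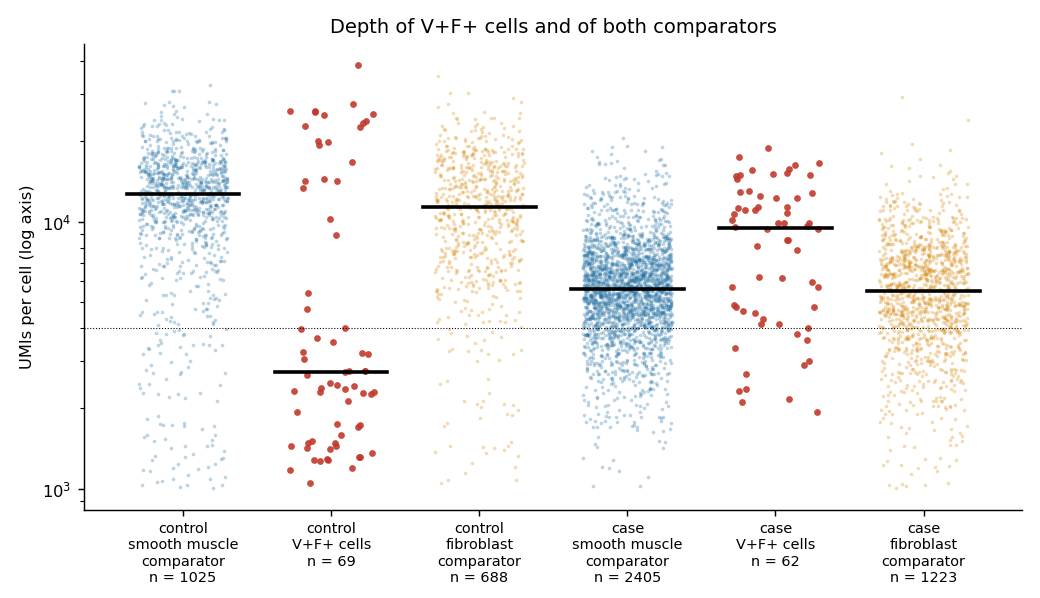
UMIs per cell (y axis, logarithmic) for V+F+ cells and both comparators in each library; each point is a cell, the bars are medians and the dotted line marks 4000 UMIs. Control V+F+ cells split into 46 below and 23 above the line, while 50 of the 62 case V+F+ cells lie above it.

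Values that bear on droplets with 2 cells were collected. The V+F+ cells with more UMIs than the medians of both comparators added together numbered 7 of 69 in the control and 22 of 62 in the case library. In the smooth muscle and fibroblast comparators they numbered 22 of 1025 and 16 of 688 in the control, and 103 of 2405 and 56 of 1223 in the case library. The Scrublet doublet caller marked 1 of the control barcodes (0.0301%) and 0 of the case barcodes, against expected rates of 2.66% and 4.52%, so its calls were not relied on. By rank alone, 39 of 69 control and 35 of 62 case V+F+ cells (56.5% of each) were among the highest Scrublet scores at the rate expected for the number of barcodes. The same held for 1.17% and 1.89% of the control smooth muscle and fibroblast comparators, and for 3.70% and 3.76% in the case library. Scrublet builds its reference by adding pairs of cells, so that a cell with the transcripts of both types scores high whatever its origin. Of the shallow control cells 23 of 46 and of the deep ones 16 of 23 were in this group.

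Free RNA was read from cells of other types. Control cells with at least 5 UMIs of macrophage markers (median 9348 UMIs) had a median V of 0.0890 and a median F of 0.0321, and such case cells (5231.5 UMIs) 0.0616 and 0.0204. All 4 medians are below the thresholds, but these cells are deeper than most control V+F+ cells. Cells with at least 5 UMIs of Schwann cell markers had a higher F, with a median of 0.823 (upper quartile 3.52) in 38 control and 0.674 (2.46) in 64 case cells, and a median V of 0.106 and 0.0921, and 0 of them were V+F+ in either library, which allows up to 7.89% and 4.69%. The 8 control cells with endothelial markers under 4000 UMIs had a median V of 0.255 and F of 0.0826. Control barcodes under 1000 UMIs, of no named type, had a median V of 1.47, above the threshold, and a median F of 0.474, and such case barcodes 0.513 and 0.428. Of the macrophage-marked cells, 0 of 59 in the control (which allows a share of up to 5.08%) and 1 of 144 in the case library were V+F+. Of cells with at least 5 UMIs of endothelial markers, 0 of 61 control cells (up to 4.92%) and 1 of 255 case cells were V+F+. Shallow barcodes differed: of those under 1000 UMIs, 57 of 798 in the control library (7.14%, 5.45% to 9.16%) and 6 of 524 in the case library (1.15%, 0.421% to 2.48%) met both thresholds. The barcode sequences of 21 cells occurred in both libraries, 1 of them a V+F+ cell. The part of doublets and of free RNA in the results was not tested.

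Both marker families were also present in genes the thresholds did not use. These genes belong to the same programmes as the rule genes, on which V+F+ cells and comparators were cut. The differences between the classes below are therefore in part set by the choice of cells and are given as a description. Of 15 further contractile genes and 15 further fibroblast genes, at least 2 UMIs of each list were found in 68 of 69 control V+F+ cells after every cell was thinned to 1000 UMIs (98.6%, exact interval 92.2% to 99.96%). The same held for 58 of 62 case V+F+ cells (93.5%, 84.3% to 98.2%). In the control comparators it held for 656 of 1025 smooth muscle (64.0%) and 227 of 688 fibroblast cells (33.0%), and in the case library for 1681 of 2405 (69.9%) and 329 of 1223 (26.9%). Macrophage-marked cells gave a background of 3 of 59 in the control and 15 of 144 in the case library, and endothelial-marked cells 5 of 61 (8.20%) and 41 of 255 (16.1%). Before thinning the V+F+ shares were 69 of 69 and 61 of 62, but 98.5% and 98.8% of the deeper control comparators also passed, so the shares at full depth do not separate the classes. Among control cells under 4000 UMIs the thinned shares were 45 of 46 V+F+, 52 of 87 smooth muscle (59.8%) and 33 of 48 fibroblast cells (68.8%), so that shallow fibroblasts also passed more often than fibroblasts of all depths. At 1000 UMIs the V+F+ cells of both libraries had medians of 11 contractile and 12 fibroblast UMIs. The smooth muscle comparator had 21 and 2 in the control library, and the fibroblast comparator 1 and 26.

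Over the summed UMIs of all depths, which mainly reflect deep cells, the contractile genes lay between the comparators. All 15 had a CPM in V+F+ cells that was below that of the smooth muscle and above that of the fibroblast comparator in both libraries. Of all 1366 genes outside the rule with a mean of at least 100 CPM over V+F+ cells, 878 (64.3%) were between the comparators in both libraries. Only 11 of the 15 reached that level, and the comparators were cut on genes of the same programmes, so nothing is read from the excess. Against comparators of the same depth all 15 were between in the deep cells of both libraries. In the shallow control cells 1 was above both (Ppp1r12b, 4 UMIs). In the shallow case cells 3 were (Lmod1, Synpo2 and Ppp1r12b, with 20, 6 and 1 UMIs). Of the genes with at least 200 CPM in the mean of the comparators, 76.8% in control and 80.3% in case deep cells were between. In the shallow cells 38.7% and 28.8% were above both. Of the contractile genes that reached this minimum, 0 of 10 and 1 of 9 were above both there. Mylk, the kinase that switches on myosin, was at 704 CPM in control V+F+ cells against 1348 in the smooth muscle and 58.0 in the fibroblast comparator. The case levels were 603 CPM against 1157 and 57.3. Lmod1, an actin nucleator of smooth muscle, stood at 375 CPM in the control and 276 CPM in the case V+F+ cells. Tpm2, a tropomyosin, stood at 2846 and 1974 CPM. Itga8, the integrin alpha 8 subunit, was at 1987 and 1440 CPM, and its fibroblast comparator levels were 115 and 99.7 CPM. Des, the intermediate filament desmin, was thin: 14 UMIs in 8 control cells and 18 UMIs in 8 case cells.

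Fibroblast genes outside the rule showed the same order over all depths with the comparators exchanged. Of the 15, 14 were between the comparators in both libraries, and Apod was the exception. Of all 5051 genes with at least 20 UMIs in V+F+ cells, 45.6% were between. The comparators were cut on genes of the same programmes, so nothing is read from the excess. At matched depth all 15 were between or level with the lower comparator in both control sets (Apod and Cd34 at 0 UMIs in the shallow one) and 14 in the deep case cells, while in the shallow case cells 3 (Apod, Cd34 and Pdgfra, each at 0 UMIs) were below both. Of the 727 control genes with at least 200 CPM in the mean of the comparators, 49.2% were between in shallow and 76.8% in deep cells. For the 684 case genes these shares were 35.5% and 80.3%. Of the list members that reached this minimum, all 11 were between in both control sets and all 9 in both case sets. Pi16, a marker of adventitial fibroblasts, was at 855 CPM in control V+F+ cells against 2177 in the fibroblast and 6.58 in the smooth muscle comparator. In case V+F+ cells it was at 480 CPM against 1011 and 5.66. Dpt, the matrix protein dermatopontin, was at 526 CPM in the control and 933 CPM in the case V+F+ cells. Serpinf1, the secreted anti-angiogenic factor PEDF, was at 1544 and 1019 CPM. Gsn, the actin-severing protein gelsolin, was at 5728 and 3776 CPM. Cells rich in Apod, which encodes a lipid carrier, were rare: 208 of its 210 UMIs in control V+F+ cells came from 1 cell, and the case V+F+ cells had 0. Over cells, the median of Mylk was 7.24 and that of Pi16 10.9 per 10000 UMIs in control V+F+ cells, and 5.80 and 2.43 in case V+F+ cells, while the median of Mylk was 0 in both fibroblast comparators and that of Pi16 was 0 in both smooth muscle comparators.

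**Figure D3:**
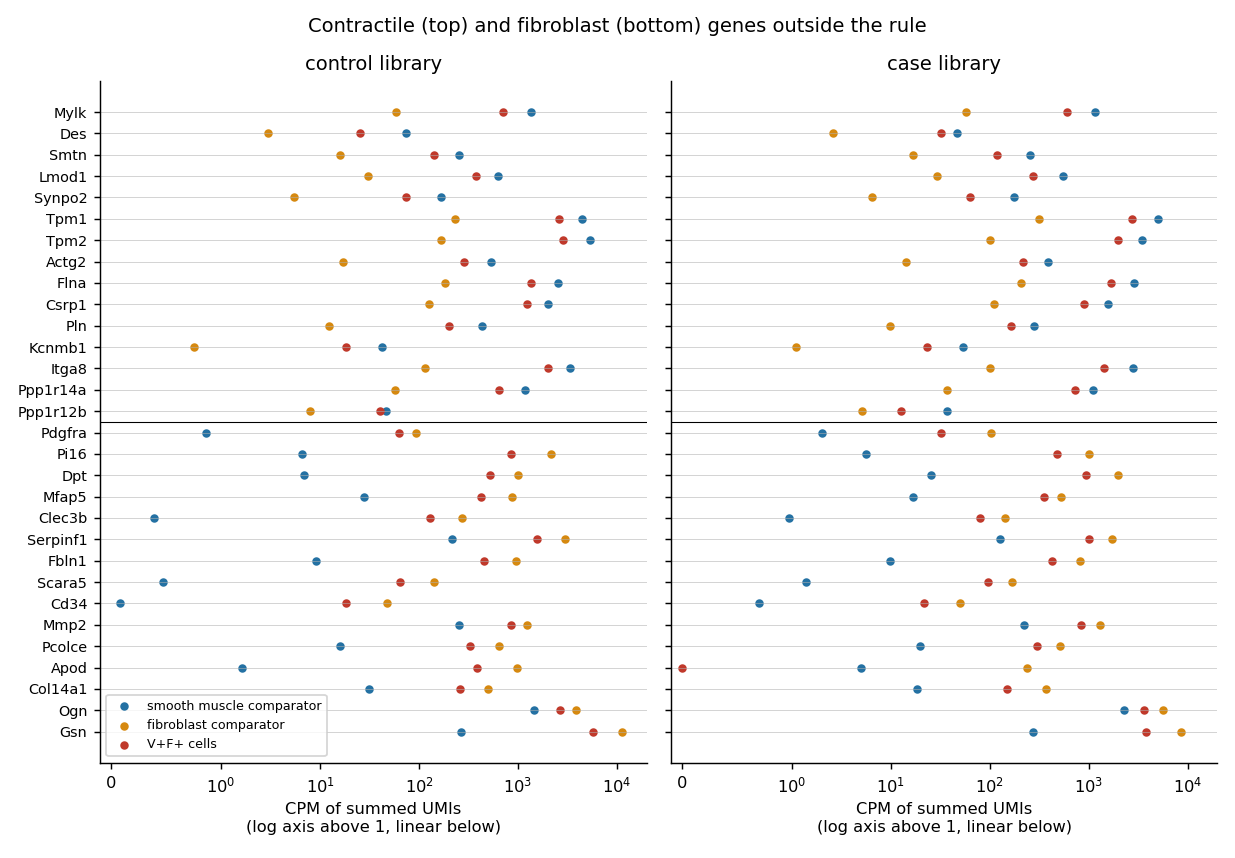
Levels (x axis, CPM of summed UMIs, logarithmic above 1 and linear below) of 15 contractile genes (upper part) and 15 fibroblast genes (lower part) that were not used to choose the cells, in the control and case libraries. V+F+ cells (red) lie between the smooth muscle (blue) and fibroblast (orange) comparators for every gene shown in both libraries, apart from Apod, which was 0 in case V+F+ cells.

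How far the cells lay from each comparator was put on a scale where 0 is the level of the fibroblast and 1 that of the smooth muscle comparator of the same library. It was taken over genes outside the rule with at least 100 CPM in the higher comparator and at least 4-fold between the comparators. The median position was 0.54 over 356 genes in the control library (quartiles 0.47 and 0.64). For the case library it was 0.51 over 296 genes (0.44 and 0.59). Genes higher in the smooth muscle comparator had medians of 0.53 (control, 177 genes) and 0.51 (case, 137 genes). Those higher in the fibroblast comparator had 0.55 (179 genes) and 0.50 (159 genes). A sum of equal parts of both comparators would give 0.5 on both sides, and 99.2% of the control and 99.7% of the case genes lay between 0 and 1 over the UMIs of all depths. The summed rule genes themselves stood at 0.53 and 0.54 for V and at 0.34 and 0.36 for F. Because the thresholds fix both shares, a position near the middle is in part set by the choice of cells, and it is given as a description.

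**Figure D4:**
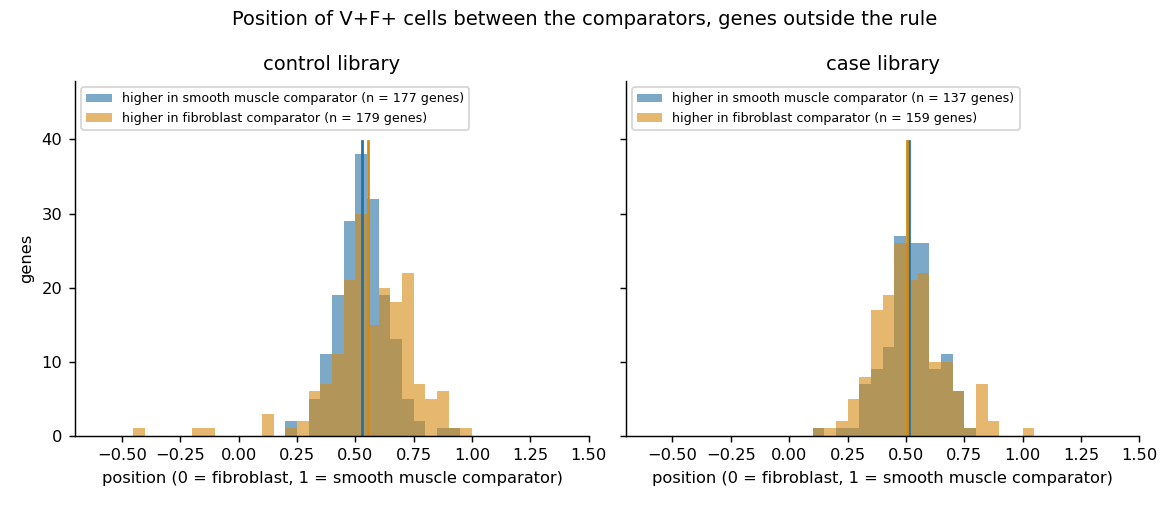
Number of genes (y axis) by the position of V+F+ cells between the fibroblast comparator (0) and the smooth muscle comparator (1, x axis), for genes outside the rule at least 4-fold apart between the comparators; vertical lines are medians. The medians were 0.53 and 0.55 in the control and 0.51 and 0.50 in the case library.

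At low depth the positions were less even. Of the genes set against comparators of the same depth, 88% of 325 lay between 0 and 1 in the shallow control cells and 69.4% of 235 in the shallow case cells, against 98.3% of 356 and 99.4% of 309 in the deep ones. The shallow control cells had a median of 0.51 for genes higher in smooth muscle but 0.72 for genes higher in fibroblasts, with quartiles of 0.50 and 0.86. The 12 shallow case cells had 0.72 and 0.75 on the same 2 sides. The 23 deep control cells had 0.53 and 0.59 against deep comparators, and the 50 deep case cells 0.51 and 0.50. Shallow fibroblast comparator cells had 1120 CPM of Tagln against 285 CPM in deep ones, so that this comparator carried more smooth muscle transcripts at low depth.

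Some fibroblast genes were further from the fibroblast level than the median. Among those at least 4-fold apart in both libraries, the highest positions belonged to Apod (0.60 and 1.02), Ccl2 (0.82 and 0.81), Cyp1b1 (0.72 and 0.80), Cxcl1 (0.80 and 0.72) and Nqo1 (0.70 and 0.80), the control value given before that of the case library. Control levels depended in part on 1 cell each. Without the cell with the most UMIs of the gene, Apod went from 384 to 3.93 CPM, Cyp1b1 from 144 to 65.2 and Nqo1 from 121 to 76.7. Ccl2 went from 504 to 406 CPM and Cxcl1 from 729 to 637. Ccl2, a monocyte chemokine, was at 504 CPM in control V+F+ cells against 2635 CPM in the fibroblast comparator, and at 359 against 1664 in the case library. Cxcl1, a neutrophil chemokine, was at 729 against 3574 CPM and at 523 against 1777. At the other end, Ctsk, a collagen-degrading cathepsin, had positions of 0.33 and 0.32 and levels of 294 and 253 CPM. Cpz, a Wnt-binding carboxypeptidase, had 0.30 and 0.35, and AABR07048474.1, listed by its clone name, 0.31 and 0.33. Smoc2 (-0.19 and 0.66) and Sfrp4 (-0.11 and 0.49) had no stable place, and 117 of the 138 Sfrp4 UMIs of control V+F+ cells came from 1 cell.

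The position of each cell among its neighbours was taken in 30 principal components that left out the 10 rule genes. Of the 20 nearest neighbours of the control V+F+ cells, 43.0% were V+F+, 14.4% smooth muscle and 18.7% fibroblast comparator cells, in a library where 3.07% of cells were V+F+. The shallow control cells had 53.8% V+F+ neighbours, 13.5% smooth muscle and 5.11% fibroblast comparator cells and 27.6% cells of none of these classes. In 32 of these 46 cells V+F+ cells made up most of the neighbours. Shallow control comparator cells had more neighbours of their own class, 73.2% for smooth muscle and 65.7% for fibroblast cells. Over all depths these shares were 96.0% and 92.4%, for classes that made up 45.7% and 30.7% of the control library. Deep control cells had 21.3% V+F+, 16.3% smooth muscle and 45.9% fibroblast neighbours. For case V+F+ cells the shares were 18.5%, 16.5% and 38.6%, where 1.25% of the library was V+F+. The 50 deep case cells had 19.0%, 11.7% and 44.6%, and the 12 shallow ones 16.2%, 36.7% and 13.8%, with 33.3% in none of the classes. V+F+ cells were thus the most frequent neighbours of shallow control cells, and fibroblast comparator cells those of deep control and deep case cells. For the 12 shallow case cells the leading class depended on the setting: with 10 neighbours and 15 principal components it was cells of none of the classes, at 40.0%. How many of these neighbours were themselves shallow was not counted.

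Few genes were higher in V+F+ cells than in both comparators. Of the 1366 genes, 0 (0%) were at least 1.5-fold above the higher comparator in both libraries. The highest was Jag1, a Notch ligand, at 124 CPM in control V+F+ cells against 86.1 in the smooth muscle and 60.8 in the fibroblast comparator. Case V+F+ cells had 126 CPM of it against 77.4 and 77.9. Its smaller excess was thus 1.44-fold (0.53 on the log2 scale), but it was -0.06 when only V+F+ cells of at least 4000 UMIs were used. Fmod, the collagen-binding fibromodulin, was at 402 CPM against 233 and 210 in the control, and at 283 against 200 and 227 in the case library. Without the cell of each library with the most Fmod UMIs it was at 339 and 246 CPM, with a smaller excess over both comparators. The next 8 by this measure were Kdelr1, Cnpy2, Atp6v0b, Vcam1, Prdx2, Arl6ip5, Lox and Emp3, each with a smaller excess of at most 0.25 on the log2 scale. Lox, the collagen and elastin cross-linking oxidase, was at 795 CPM against 627 and 529 in the control, and at 548 against 492 and 492 in the case library. For Vcam1, an adhesion molecule for leukocytes, 40 of the 86 UMIs of control V+F+ cells came from 1 cell, without which it was at 86.4 CPM, below both comparators.

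V+F+ cells were also set against comparators of the same depth. Of 743 genes with at least 200 CPM and 20 UMIs in the shallow control V+F+ cells, 169 (22.7%) were at least 1.5-fold above both comparators. In the deep control cells 2 of 725 genes (0.276%) were, Fmod and Myoc, in the 12 shallow case cells 35 of 244 (14.3%), and in the deep case cells 0 of 666 (0%). This minimum is on the V+F+ cells themselves, so that genes enter in part through being high there, and in the 34249 UMIs of the shallow case cells 20 UMIs stand for 584 CPM. With a minimum of 200 CPM on the mean of the comparators instead, a choice made after seeing the data, the counts were 102 of 727 (14%) and 1 of 727 (Fmod, 0.138%) in the shallow and deep control cells, and 48 of 684 (7.02%) and 0 of 684 (0%) in the case cells. By that minimum 23 genes were at least 1.5-fold below both comparators in the shallow control and 127 in the shallow case cells, against 0 in both deep sets, so that genes lay outside the comparators in both directions at low depth. The lower bound of the exact interval was itself above 1.5-fold for 13 of the 102 and 14 of the 48. The part of the small counts in these numbers was not tested. The genes named next for the shallow control cells were singled out after their values had been seen, apart from Adm, Olr1, Thbd and Gfpt2 (read here from the symbol Gfp2), which are on the list of genes that the study names for its transitional cells, a choice made on these libraries and so no independent evidence.

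Adm, which encodes the vasodilator peptide adrenomedullin, was at 993 CPM in the shallow control V+F+ cells (exact interval 806 to 1210), with 98 UMIs in 36 of 46 cells. Comparator cells of the same depth had 67.9 CPM (smooth muscle) and 188 CPM (fibroblast), deep control V+F+ cells 62.4, and shallow case V+F+ cells 29.2 from 1 UMI. Thbd, the thrombin receptor thrombomodulin, was at 831 CPM (661 to 1032) against 83.6 and 215, and at 163 CPM in deep control V+F+ cells. Olr1, a receptor for oxidised LDL, had 20 UMIs in 13 shallow control cells (203 CPM, 124 to 313), 1 UMI in the shallow smooth muscle and 0 in the shallow fibroblast comparator. Case V+F+ cells had 0 Olr1 UMIs. Gfpt2, an enzyme of hexosamine synthesis, was at 659 CPM (508 to 840) against 83.6 and 511, so that it was close to the fibroblast level. In the deep sets it was at 444 CPM in control and 1117 CPM in case V+F+ cells, below the 2057 and 2526 CPM of deep fibroblasts.

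The following genes were picked for their values in the shallow control cells and stand for no group. Hmox1, the haem-degrading oxygenase, was at 4074 CPM against 1071 and 1524 in comparator cells of the same depth. The deep fibroblast comparator, however, had 6064 CPM of it. Sqstm1, an autophagy receptor, was at 932 CPM against 251 and 242, and against 448 and 544 in deep comparators. Nfe2l2, the transcription factor of the antioxidant response, was at 466 CPM against 157 and 134. Cryab, a small heat shock protein, was at 1095 CPM against 408 and 134, Sesn2, a stress-induced inhibitor of growth signalling, at 416 CPM against 62.7 and 125, and Chac1, a glutathione-degrading enzyme, at 274 CPM against 26.1 and 53.8. Psmc2, a subunit of the proteasome, was at 253 CPM against 31.3 and 8.96. The shallow smooth muscle and fibroblast comparators held 191411 and 111567 UMIs in total. Levels as low as theirs for Psmc2 and Chac1 thus rest on few UMIs, and the size of the excess over them is imprecise. Over all depths, which mainly reflect deep cells, the control comparators had 106 and 69.9 CPM of Psmc2, so that the excess over these was smaller. Deep fibroblast comparator cells had 402 CPM of Nfe2l2, 811 of Cryab, 283 of Sesn2 and 243 of Chac1, so that the excess of shallow V+F+ cells over them was smaller than over the shallow comparators. Of the 12 genes of the immediate early and stress list seen at this depth, 1 (Jun) was above both comparators, 4 lay between them and 7 were below both. Of the 727 genes with at least 200 CPM in the mean of the comparators, which include these 12, 38.7% were above both by any amount in the shallow control cells, 49.2% between and 12.1% below. Among the latter were Fos, at 821 CPM against 2121 and 1595, and Egr1, at 943 CPM against 2320 and 1318, both transcription factors of the immediate early response. In the deep control cells 2 of 12 (Dusp1 and Zfp36) were above, 9 between and 1 (Ier2) below, and of the 727 genes 9.49% were above, 76.8% between and 13.8% below.

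Endothelial markers were counted beside these genes, several of which endothelial cells also express. The shallow control cells had 20 UMIs of the 8 listed endothelial markers (203 CPM), 12 of Cdh5, 4 of Plvap, 3 of Vwf and 1 of Tie1, with Cldn5, Sox17, Kdr and Emcn at 0. The Cdh5 UMIs, of a junction protein of endothelium, lay in 9 of 46 cells, and control comparator cells under 4000 UMIs had 0 of them. Deep control V+F+ cells had 2 endothelial UMIs (4.46 CPM), the case V+F+ cells 8 (14.4 CPM), and the control comparators under 4000 UMIs 5.22 and 0 CPM. Erythrocyte markers had 13 UMIs in the shallow control V+F+ cells (132 CPM), against 94.0 and 26.9 CPM in comparators of that depth, and 6 UMIs (13.4 CPM) in the deep ones. None of the control and 1 of the case V+F+ cells reached 5 endothelial UMIs. Mitochondrial genes took a median of 5.94% of the UMIs of shallow control V+F+ cells, against 10.1% and 3.92% in the comparators of that depth. The part of endothelial or erythrocyte RNA and of depth in these levels was not tested.

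**Figure D5:**
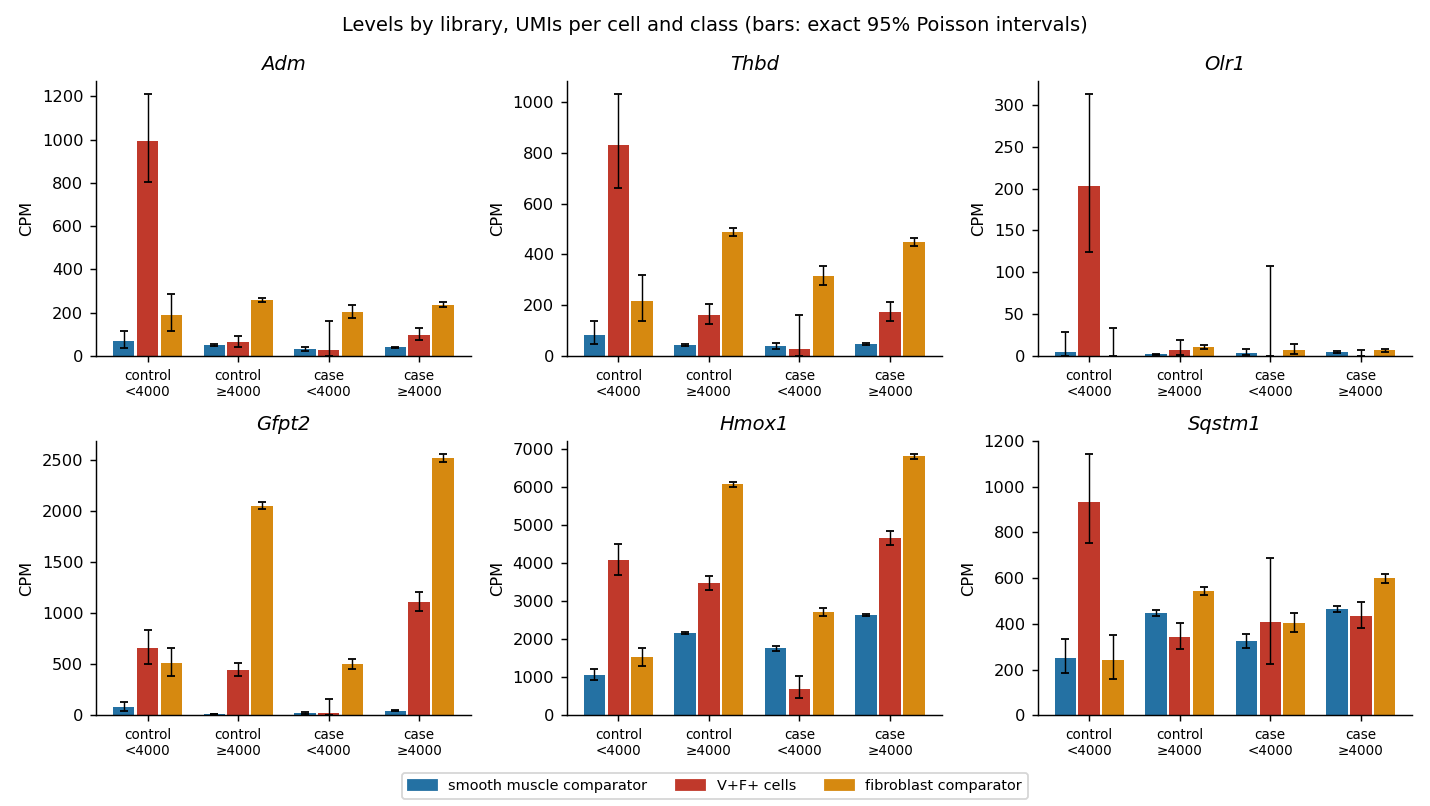
Levels (y axis, CPM of summed UMIs, from 0) of 6 genes in V+F+ cells (red) and the smooth muscle (blue) and fibroblast (orange) comparators, split by library and by UMIs per cell (below 4000, or 4000 and above); black bars are exact 95% Poisson intervals for counting error. Adm, Thbd, Olr1 and Sqstm1 are highest in the shallow control V+F+ cells, at 993, 831, 203 and 932 CPM, while Gfpt2 and Hmox1 are highest in deep fibroblasts.

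Over all depths, markers of most other cell types were at few UMIs in V+F+ cells. The 10 macrophage markers summed to 7 UMIs in control V+F+ cells (12.8 CPM) and to 26 in case V+F+ cells (46.9 CPM), 15 of them of Cd74 in 2 cells, with Ncf4, Ptprc and Tyrobp at 0 in both libraries. The T cell and adipocyte markers were at 0. Of the 5 Schwann cell markers only S100b was found, at 18 UMIs in each library. The pericyte list was carried by genes that smooth muscle shares, Pdgfrb with 296 CPM in each library and Abcc9 with 170 and 251, while Rgs5 had 0 and 1 UMI. In the 12 shallow case cells, however, the pericyte list came to 1693 CPM, against 1062 and 587 in comparators of that depth. It had 58 UMIs, 36 of them Pdgfrb, and 5 cells had at least 5 UMIs of the list. Of its 8 genes seen, 3 were at least 1.5-fold above both. The share was 7.02% of the 684 genes with at least 200 CPM in the mean of the comparators. Only 2 pericyte genes reached that minimum. Chondrocyte markers came to 12 and 31 UMIs, of which Sox9, a cartilage regulator, made up 4 and 16. Skeletal muscle markers had 44 and 11 UMIs, most of them Acta1, erythrocyte markers 19 and 20, and the neuroendocrine list 8 and 28, all Pcsk1. Among cycling genes only Pcna was found at some level, at 389 and 507 CPM, and Mki67 had 3 UMIs in each library. In the shallow control cells the cycling list was at 547 CPM (54 UMIs, 50 of them Pcna) against 261 and 269. There 4 of 5 genes seen were at least 1.5-fold above both, against 14% of the 727 genes that reached the same minimum. Only 1 cycling gene reached it, so nothing is read from the count. In the shallow case cells the cycling list was at 234 CPM (8 UMIs) against 525 and 589. The part of pericytes and cycling cells in the results was not tested.

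Regulators of the smooth muscle and mesenchymal programmes were mostly low. Of 15, 12 had at least 20 UMIs over both libraries and 7 of these lay between the comparators in both, where 45.6% of all 5051 genes with that many UMIs did, so that nothing is read from the count. Myocd, the coactivator of the contractile genes, had 17 UMIs in control (31.1 CPM, 18.1 to 49.8) and 26 in case V+F+ cells (46.9 CPM, 30.6 to 68.7), against 88.9 and 85.5 CPM in the smooth muscle comparator. Klf4, a factor known for repressing contractile genes, was at 2455 and 2903 CPM, between 1621 (smooth muscle) and 4788 (fibroblast) in the control comparators. Twist1, a mesenchymal regulator, was at 305 CPM in the control V+F+ cells, above the 219 and 271 of the comparators but at 256 CPM and between them without the cell with the most of its UMIs, and at 249 CPM in the case V+F+ cells, between 170 and 301, and Runx1 at 74.9 and 134 CPM. Tcf21, a fibroblast and epicardial factor, had 5 UMIs in 2 control cells and 0 in case cells.

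Of 13 genes known from matrix-producing smooth muscle cells, 10 had at least 20 UMIs, and 7 of these lay between the comparators in both libraries over all depths, against the same 45.6% of all genes. Spp1, osteopontin, was at 223 CPM in control V+F+ cells against 316 in the smooth muscle and 29.1 in the fibroblast comparator, and at 215 against 265 and 22.5 in the case library. Bgn, biglycan, was at 4209 and 3067 CPM, and Vim, vimentin, at 3060 and 2777 CPM, all between the comparators. Mgp, an inhibitor of calcification, was above both in the control library (3255 CPM against 2834 and 2729), but at 2833 CPM and no longer above them without 1 cell, and below both in the case library (1963 against 2111 and 2239). Fn1, fibronectin, was at 640 CPM in the control and 1147 CPM in the case V+F+ cells. Of the myofibroblast list, Cthrc1 was at 194 and 132 CPM and Sparc at 8589 and 5905. Eln, elastin, was at 2243 and 1728 CPM, against 2187 and 1615 in the smooth muscle comparator, and at 1999 and 1500 CPM without the cell of each library with the most of its UMIs, so that no order is read. Col18a1, a basement membrane collagen, was at 1014 and 666 CPM.

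In the 12 shallow case cells more genes of these lists were above both comparators than in the deep ones. Against comparators of that depth 7 of the 13 genes of matrix-producing smooth muscle cells were above both, 5 of them at least 1.5-fold, and the list summed to 17402 CPM against 11381 in the smooth muscle and 8591 in the fibroblast comparator. The elastic fibre list had 6 of 8 genes above both and 6394 CPM against 2468 and 3067, the other collagens 6 of 11 and the myofibroblast list 5 of 12. Of the 684 genes with at least 200 CPM in the mean of the comparators 28.8% were above both by any amount in these cells, 35.5% between and 35.7% below. Of the list members that reached this minimum 3 of 6, 3 of 5, 3 of 4 and 4 of 4 were above both, in the same order of lists. In the shallow control cells 3 of 13, 0 of 8, 3 of 11 and 4 of 12 were above both. Of the members that reached the minimum 2 of 7, 0 of 5, 0 of 5 and 1 of 3 were, against 38.7% of 727 genes. Bgn was at 4818 CPM in the shallow case cells, from 165 UMIs, 36 of them in 1 cell, against 3199 in the smooth muscle and 1547 in the fibroblast comparator. Eln was at 3329 CPM, from 114 UMIs, 30 of them in 1 cell, against 1389 and 979. The deep case cells had 0 of 13, 2 of 8, 0 of 11 and 2 of 12 above both. With the minimum these were 0 of 6, 0 of 5, 0 of 4 and 2 of 4. Of the 684 genes 9.36% were above, 80.3% between and 10.4% below. In the shallow case cells other lists went the other way. Of the 15 smooth muscle and mesenchymal regulators 10 were below both, and of 12 immediate early and stress genes 10 were. Of those that reached the minimum, 2 of 2 and 9 of 11 were below both. The part of the low depth in these counts was not tested.

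Between the libraries, the V+F+ cells of the injured arteries had 42 of 1366 genes (3.07%) at least 2-fold higher and 44 (3.22%) at least 2-fold lower than those of the control arteries. Over these genes the smooth muscle comparator had 38 higher and 37 lower, and the fibroblast comparator 19 and 39. Of the 42 higher genes 20 and 15 were also counted as higher in these comparators. Of the 44 lower genes 17 and 18 were also counted as lower. The median of the log2 ratio of case over control was -0.13 in V+F+ cells. With edgeR's TMM scaling the median was 0.11 and the split became 89 higher and 20 lower, so that the balance of directions depends on the scaling. The V+F+ cells of the 2 libraries also differ in depth, since 46 of 69 and 12 of 62 were shallow.

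Of the 8 genes with the highest ratio of case over control, Cd44, the hyaluronan receptor, was at 128 CPM in the control and 384 CPM in the case V+F+ cells, a log2 ratio of 1.59 (exact interval 1.19 to 2.00). It was also higher in the case library in the smooth muscle (1.18) and the fibroblast comparator (1.17). Slc20a1, a phosphate transporter, was at 121 and 334 CPM (log2 ratio 1.47, 1.06 to 1.90), with 0.43 and 0.92 in the comparators. Abca1, the cholesterol exporter, was at 56.7 and 188 CPM (1.73, 1.14 to 2.36), with 0.75 and 0.48. With each cell weighted equally, Abca1 had 0.68 and Slc20a1 0.93, and thus no longer reached 2-fold. Mnda, an interferon-inducible nuclear factor, was at 51.2 and 164 CPM, 31 of its 91 case UMIs in 1 cell. It reached 0.16 with equal weights and turned negative without the deepest V+F+ cells. Among cells under 4000 UMIs, with 12 case V+F+ cells, the ratio of Mnda was negative and that of Slc20a1 near no change. For Abca1 only a negative upper limit could be given there. Cwc25, a splicing factor, was at 91.4 and 274 CPM (log2 ratio 1.59), with 1.01 and -0.19 in the comparators. The other 3 of the 8 highest were Rps27a (1.77), LOC100362149 (1.72) and AABR07057190.1 (2.35), of which Rps27a, a ribosomal gene, is uncertain. The files hold 2 entries of that symbol: the named one was at 616 CPM in the control and 2102 CPM in the case V+F+ cells, and the other at 1488 and 770 CPM (-0.95), and their sum had a log2 ratio of 0.45 (0.34 to 0.56), which is below 2-fold. Both comparators also had higher levels of all 3 in the case library, with log2 ratios from 1.55 to 3.00.

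Among the 8 lowest were 2 genes carried by a control cell each. Apod had 210 control and 0 case UMIs, and Myoc, encoding myocilin, 114 control UMIs, all in 1 cell, and 0 case UMIs. Against a floor of 3 UMIs over the case V+F+ cells, the log2 ratio was at most -6.15 for Apod and -5.27 for Myoc. Cygb, the oxygen-binding cytoglobin, was at 194 CPM in the control and 68.6 CPM in the case V+F+ cells (log2 ratio -1.50, -2.07 to -0.95), with -0.90 in the fibroblast comparator. Pkig, an inhibitor of protein kinase A, was at 152 and 55.9 CPM (-1.44), with -1.11 and -1.16 in the comparators. Srgn, the proteoglycan serglycin, was at 188 and 70.4 CPM (-1.42), and at -0.98 with equal weights. AABR07048474.1 had a ratio of -1.77, with -1.09 and -1.72 in the comparators. RT1-CE10 (-1.47) and Rps10l1 (-1.43) belong to families with near-identical copies and are uncertain. In the comparators RT1-CE10 had -1.50 and -1.58, and Rps10l1 -1.51 and -1.44.

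Within the gene lists few members passed 2-fold. Of the 11 contractile genes with at least 100 CPM, 0 were 2-fold higher and 0 lower (median -0.28). Of the 12 fibroblast genes, 0 were higher and 1, Apod, lower (median -0.43), but Dpt went from 0.83 to 1.29 without the cell of each library with the most of its UMIs. Of 9 genes of modulated smooth muscle cells, S100a4 was higher, at 771 CPM in the control and 1757 CPM in the case V+F+ cells (log2 ratio 1.19, 1.02 to 1.36), and it had 1.11 and 0.67 in the comparators. Of 5 myofibroblast genes, Postn, periostin, was just past 2-fold, with 196 and 391 CPM (1.00, 0.66 to 1.35), and at 0.82 with equal weights. In the fibroblast comparator Postn went from 14.9 to 299 CPM (4.33), and in the smooth muscle comparator from 213 to 185. In the V+F+ cells 46 of its 107 control UMIs came from 1 cell. The 6 other collagens, the 5 elastic fibre genes, the 3 pericyte genes and the 12 immediate early and stress genes of this level had 0 members past 2-fold. Of the genes that the study names for its transitional cells, Gfpt2 was higher (1.12, 0.91 to 1.34) and Adm lower (-1.32, -1.82 to -0.84), and Thbd was at -0.79, or -1.03 without the cell of each library with the most of its UMIs. With each cell weighted equally Gfpt2 had 0.55, Adm -3.13 and Thbd -2.19, so that the 2-fold call was lost for Gfpt2 and gained for Thbd. Split by depth the directions were not the same. In deep V+F+ cells Adm was at 62.4 CPM in the control and 96.1 CPM in the case library, Thbd at 163 and 173 CPM, and Gfpt2 at 444 and 1117 CPM. In shallow V+F+ cells all 3 were lower in the case library, with 1 UMI of each (29.2 CPM) against 993, 831 and 659 CPM. These lists share all their cells with the counts above, and 3.07% and 3.22% of all genes passed 2-fold in each direction.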

How the data were processed

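The authors deposited raw UMI counts per gene and barcode in a matrix written by Cell Ranger 3.1.0. The submitters' processing notes name Seurat and Rnor 6.0, and whether counts were down-sampled before deposit is not given in the sources used here. The matrix lists 32623 genes, and of the listed markers Col1a2, Col6a3, Hspa1a, Pecam1, Myh4, Hba-a1 and Hbb-b1 were not analysed here. Barcodes were assigned to libraries by their suffix and the stated number of barcodes per library. Cells were used as deposited, with no doublets removed. UMIs were summed per library and class and scaled to CPM, and ratios have exact Poisson intervals and shares exact Clopper-Pearson intervals at 95%. Limits given for shares of 0 cells are 3 divided by the number of cells, not exact bounds. With 1 library per group no test was run. Named genes were those of 22 lists, the 10 highest above both comparators, the 8 highest and 8 lowest case over control ratios and the 5 highest and 5 lowest positions, among genes with at least 100 CPM. Members and lists were chosen with earlier results of these data known. The code was checked on simulated counts. Scrublet was run through scanpy 1.11.5 in Python 3.11.15, intervals came from scipy 1.17.1, and TMM factors from edgeR 4.0.16 under R 4.3.3.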

Additional observations from a re-analysis of the deposited data

Results flagged for a closer look

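The depth of V+F+ cells relative to the comparators had opposite directions in the libraries. The log2 ratio of their median UMIs to that of the smooth muscle comparator was -2.21 in the control and 0.76 in the case library, and to that of the fibroblast comparator -2.05 and 0.78. With 1 library per group this difference between groups was not tested. The control value rests on the 46 cells under 4000 UMIs: the other 23 had a median of 20044 UMIs, above both comparators.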

How the results depend on the processing

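No paired analysis was possible because each group has 1 library. Of 150 recomputed values of the comparisons 96 held within counting error, or within 1.5 times for counts, as did 13 of 26 under alternatives chosen after seeing the data. The share of V+F+ cells was 0.312% in the control and 0.0404% in the case library with doubled thresholds, 6.33% and 2.67% with lower ones, and 1.39% and 0.575% without the highest Scrublet scores. It was 2.35% in the control library at 2000 UMIs or more, 3.88% with V and F after thinning, and 0.812% in the case library without the deepest cells. In these the control share was the higher, but at 4000 UMIs or more it was 1.26% against 1.43%, and under 4000 UMIs 10.8% against 0.827%, both chosen after seeing the data. The deeper of these ranges pooled unlike depths, and at 8000 to 16000 UMIs the share was 0.574% in the control and 4.71% in the case library. Median depth was 5275.5 UMIs in the case library without the deepest cells, 4881 without the highest Scrublet scores, 3994 in the control library at 2000 UMIs or more and 20044 with cells of at least 4000 UMIs, a choice made after seeing the data. Cells with both further marker lists came to 100% in the control library with a 10% mitochondrial limit, 1 UMI per list or at least 4000 UMIs, and in both libraries with doubled thresholds. V+F+ neighbours were 46.1% in the control library with 10 neighbours and 15 principal components.

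The median position in the control library was 0.53 with the mitochondrial limit, 0.65 with doubled and 0.62 with lower thresholds, 0.53 without the highest Scrublet scores, 0.60 without the deepest cells, 0.58 with equal weights and 0.62 for cells under 4000 UMIs. In the case library it was 0.63 with doubled and 0.54 with lower thresholds, 0.43 without the highest Scrublet scores, 0.54 without the deepest cells, 0.54 with free RNA subtracted, 0.54 with equal weights, 0.49 with at least 4000 UMIs and 0.75 under 4000 UMIs.

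Genes above both comparators numbered 48 with doubled thresholds, 2 (Fmod, Vcam1) with lower ones, 4 (Jag1, Postn, Ppp1r14b, Thbs4) without the highest Scrublet scores, 2 (Fmod, Jag1) without the deepest cells, 1 (Jag1) with equal weights, 4 (Hmgb1, Lrrc17, Tcea3, Tmem39b) with at least 20 UMIs in place of the CPM limit and 58 for cells under 4000 UMIs. At matched depth the minimum on the comparators gave 102 genes in the shallow and 1 in the deep control cells, in place of 169 and 2. Genes outside the naming rule were named after these counts were seen.

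Case over control, the genes higher and lower by 2-fold numbered 309 and 252 with doubled thresholds, which leave 2 case cells, 78 and 91 without the highest Scrublet scores, 89 and 20 with TMM, 68 and 112 at 50 CPM, 164 and 411 at 20 UMIs and 238 and 276 under 4000 UMIs. With lower thresholds 22 were higher, and with V and F after thinning 27. The median log2 ratio was 0.19 with doubled and -0.089 with lower thresholds, -0.052 without the highest Scrublet scores, -0.082 after thinning, 0.11 with TMM, -0.18 with equal weights and -0.18 at 20 UMIs. RT1-CE10 turned to 1.17 with doubled thresholds and Mnda to -0.23 without the deepest cells. Under 4000 UMIs Mnda was at -2.38, Slc20a1 at -0.058 and Abca1 at -0.35 or below. The cause of these changes was not tested. The 69 control and 62 case cells limit the precision throughout, and the 12 shallow case cells most of all.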
